A study of Caenorhabditis elegans with 6 samples.

Results

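The genes described here are the 10 core components of the DBL-1 pathway of *Caenorhabditis elegans*, chosen by gene name from the 46904 genes of the count tables. They are the ligand *dbl-1*, the extracellular regulators *lon-2* and *crm-1*, the receptor genes *sma-6*, *daf-4* and *sma-10*, the Smad genes *sma-2*, *sma-3* and *sma-4*, and the transcription cofactor *sma-9*. All 10 genes had reads in all 6 libraries, and all 10 were among the 14899 genes kept for testing. The rule uses names only and no measured value.

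DBL-1 is a secreted ligand of the TGF-beta superfamily, of the branch related to bone morphogenetic proteins (BMPs), and it is made largely by neurons. It binds a complex of type I and type II receptor kinases, which phosphorylate receptor-regulated Smads, and these enter the nucleus with a common Smad and control genes such as those of cuticle collagens. In worms, loss of the ligand, a receptor or a Smad gives a small body (Sma), loss of an inhibitor such as LON-2 gives a long one (Lon), and the epidermis is the tissue where the pathway chiefly acts on body size.

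RNA was taken from whole wild-type N2 hermaphrodites that were 3 days old when feeding began and were fed for 5 days, about 200 worms per group. The 3 groups had 2 libraries each. They were OP50 + LL12007, a mixture of *Escherichia coli* OP50 with a nisin-producing strain of *Lactococcus lactis* subsp. *lactis*; OP50 + LL100933, the same mixture with a strain described as not producing nisin; and OP50, the standard food alone. LL100933 is the study's name for a strain that the sample labels number 100923. The groups share genotype, age, sex and feeding time, and in the study's feeding assays the mixed lawns held *Lactococcus* in place of part of the OP50, so the presence of one and the smaller amount of the other cannot be told apart. Body size was among the traits that the study measured on these diets, and the question put here is whether RNA of the pathway that sets it differed between them.

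The libraries held 15953213 and 14929196 counted reads with the LL12007 diet, 19763455 and 15748820 with the LL100933 diet, and 21691687 and 17280251 with OP50 alone. The members were covered by 77 to 3433 reads per library, from *sma-3* in replicate 2 of OP50 to *sma-9* in replicate 2 of OP50 + LL100933. Replicate 2 of OP50 stood apart from the other libraries on the first principal component of log counts, which held 48.2% of the variance, with a score of -52.5 against -21.2 for replicate 1 of OP50 and -4.74 to 35.3 for the 4 libraries of the mixed diets. Where leaving that library out ended the call of a named gene, the value without it is given too, as it is for the members that moved most. Whether replicate libraries stem from worms raised separately is not stated, so all p-values reflect the library-to-library spread alone, and that spread may be technical.

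None of the 10 genes passed the test in any of the 3 comparisons, although 9 of them with LL100933 and 8 of them with LL12007 had a positive log2 fold change against OP50. The test was the quasi-likelihood test of edgeR on counts with Benjamini-Hochberg adjustment over all 14899 genes and a threshold of 0.05. Across all tested genes, OP50 + LL12007 had 8.76% of genes called higher and 7.71% called lower than OP50, and OP50 + LL100933 had 4.38% higher and 2.24% lower than OP50. At those shares a background list of 10 genes would also hold fewer than 1 call in each direction. DESeq2 on all 6 libraries called 2 members higher in each of these comparisons and none lower, and no member between the strains. The shares above are those of edgeR, and no DESeq2 share of genes called higher is set beside these counts. Between OP50 + LL12007 and OP50 + LL100933, edgeR called 0% of the tested genes higher and 0% lower.

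Several members lay close to the threshold. At an unadjusted p under 0.05 in edgeR, 5 of the 10 were higher with LL12007 (*dbl-1*, *crm-1*, *sma-3*, *sma-4* and *sma-9*), beside 18.8% of all tested genes higher and 18.1% lower. With LL100933 there were also 5 (*dbl-1*, *crm-1*, *sma-6*, *sma-4* and *sma-9*), beside 15.6% higher and 15.8% lower. No member was lower at that level against OP50, and between the strains there were 0 members in either direction, beside 5.26% of genes higher and 5.01% lower. The smallest unadjusted p of a member was 0.00893 with LL12007, where the largest p among called genes was 0.00824, and 0.00431 with LL100933, where it was 0.0033. The median log2 fold change of the 10 genes was 0.34 with LL12007 and 0.36 with LL100933, against 0.02 for all tested genes in both comparisons. Both comparisons use the same 2 OP50 libraries.

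*dbl-1*, the ligand gene, had 559 and 544 normalized counts in OP50 + LL12007, 606 and 560 in OP50 + LL100933, and 444 and 314 in OP50. All 4 libraries of the mixed diets were above both OP50 libraries, and replicate 2 of OP50 was the lowest. The means were 552 ± 10.9, 583 ± 32.2 and 379 ± 91.4 normalized counts in that order (SD, n = 2 each). The log2 fold change against OP50 was 0.54 ± 0.17 with LL12007 (SE, edgeR adjusted p = 0.0541) and 0.62 ± 0.17 with LL100933 (SE, adjusted p = 0.054). Neither passed, although the unadjusted 95% intervals, 0.16 to 0.91 and 0.25 to 0.99, lay above 0.

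**Figure D1:**
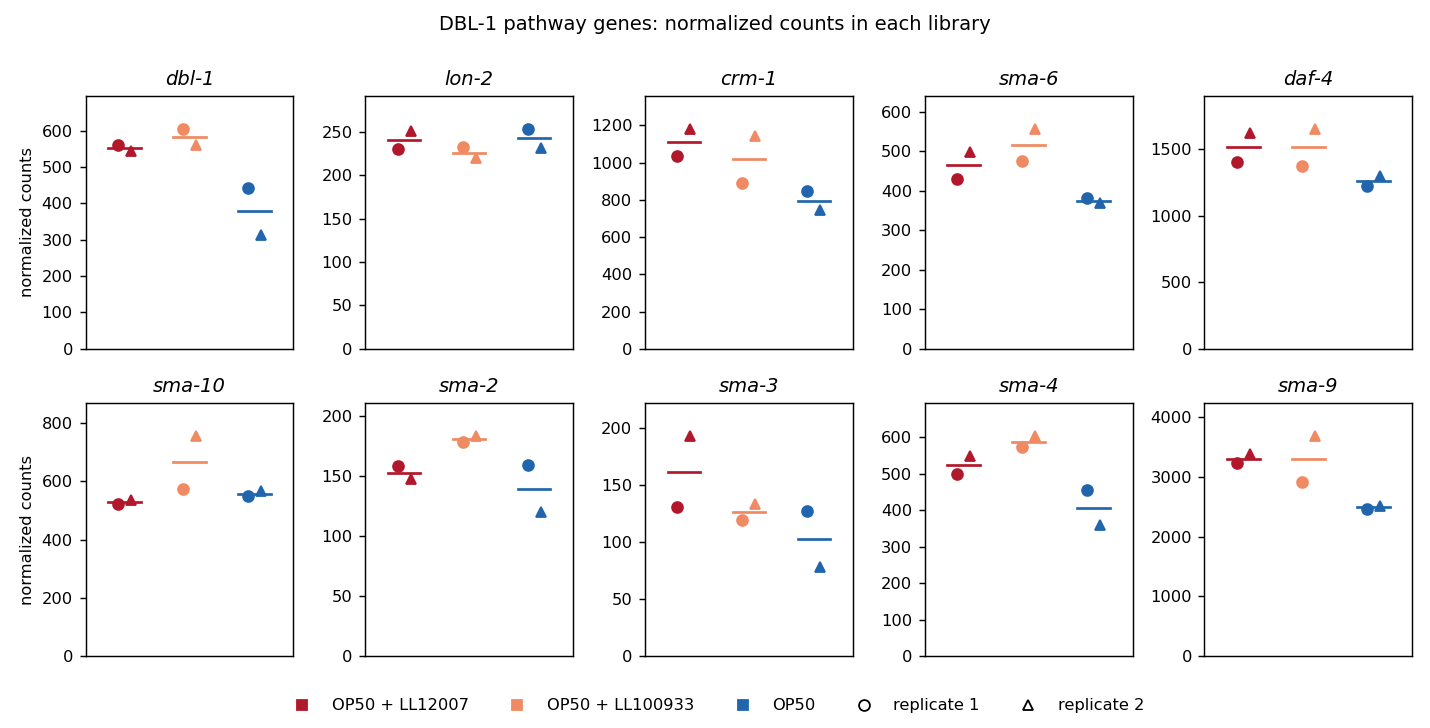
Normalized counts of each of the 10 genes (vertical axes, from 0) in each library, with OP50 + LL12007 on the left, OP50 + LL100933 in the middle and OP50 on the right of each panel. Circles are replicate 1, triangles replicate 2 and short lines the mean of 2 libraries. For *dbl-1* the 4 mixed-diet libraries sit between 544 and 606 and the OP50 libraries at 444 and 314, while *lon-2* lies between 220 and 254 in all 6.

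Of the extracellular regulators, *lon-2* had the log2 fold changes closest to 0 of any member against OP50, and *crm-1* was higher in all mixed-diet libraries. *lon-2* encodes a glypican, a heparan sulfate proteoglycan that binds the ligand and restrains the pathway. It had 230 and 251 normalized counts in OP50 + LL12007, 232 and 220 in OP50 + LL100933, and 254 and 231 in OP50, so the groups overlapped. Its log2 fold changes of -0.01 with LL12007 (adjusted p = 0.957) and -0.10 with LL100933 (adjusted p = 0.682) had 95% intervals of -0.37 to 0.34 and -0.46 to 0.25.

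*crm-1* encodes a secreted protein with cysteine-rich domains, related to vertebrate crossveinless 2 and kielin, that promotes DBL-1 signalling in worms. Its normalized counts were 1036 and 1182 in OP50 + LL12007, 891 and 1144 in OP50 + LL100933, and 846 and 746 in OP50. Both mixed diets were above OP50 in every library, but 1 OP50 + LL100933 library was close to the higher OP50 library. The log2 fold change was 0.48 ± 0.15 with LL12007 (SE, adjusted p = 0.0521), the smallest adjusted p of any member, and 0.35 ± 0.15 with LL100933 (SE, adjusted p = 0.135). The deposited gene models of *crm-1* share 17 bases of exon with B0024.13 on the opposite strand, which had 277 to 436 reads. No source used here gives the strand setting of the counting, so reads from the shared bases cannot be assigned.

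Of the receptor genes, *sma-6* had the largest log2 fold changes against OP50. It encodes the type I receptor of the pathway. It had 430 and 499 normalized counts in OP50 + LL12007, 477 and 558 in OP50 + LL100933, and 381 and 369 in OP50, without overlap of either mixed diet with OP50. Its log2 fold change was 0.31 ± 0.14 with LL12007 (SE, adjusted p = 0.149) and 0.46 ± 0.14 with LL100933 (SE, adjusted p = 0.0708).

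*daf-4* encodes the type II receptor, which the dauer pathway of the ligand DAF-7 also uses. It had 1408 and 1619 normalized counts in OP50 + LL12007, 1375 and 1656 in OP50 + LL100933, and 1228 and 1298 in OP50. The groups did not overlap here either, but the gap from OP50 to the nearest mixed-diet library was smaller than the distance between the 2 libraries of a mixed diet. The log2 fold change was 0.26 ± 0.13 in both comparisons (SE, adjusted p = 0.162 with LL12007 and 0.186 with LL100933).

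*sma-10* encodes a membrane protein with leucine-rich repeats and immunoglobulin domains that binds the receptors and promotes signalling. It had 522 and 537 normalized counts in OP50 + LL12007, 575 and 755 in OP50 + LL100933, and 550 and 566 in OP50. The only high library was replicate 2 of OP50 + LL100933. It was the member with the smallest p between the strains, at a log2 fold change of -0.33 ± 0.15 for OP50 + LL12007 against OP50 + LL100933 (SE, edgeR adjusted p = 0.487, unadjusted p = 0.0505), and that value was -0.12 without replicate 2 of OP50 + LL100933. Against OP50 its log2 fold change was -0.08 with LL12007 (adjusted p = 0.723) and 0.25 with LL100933 (adjusted p = 0.259).

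**Figure D2:**
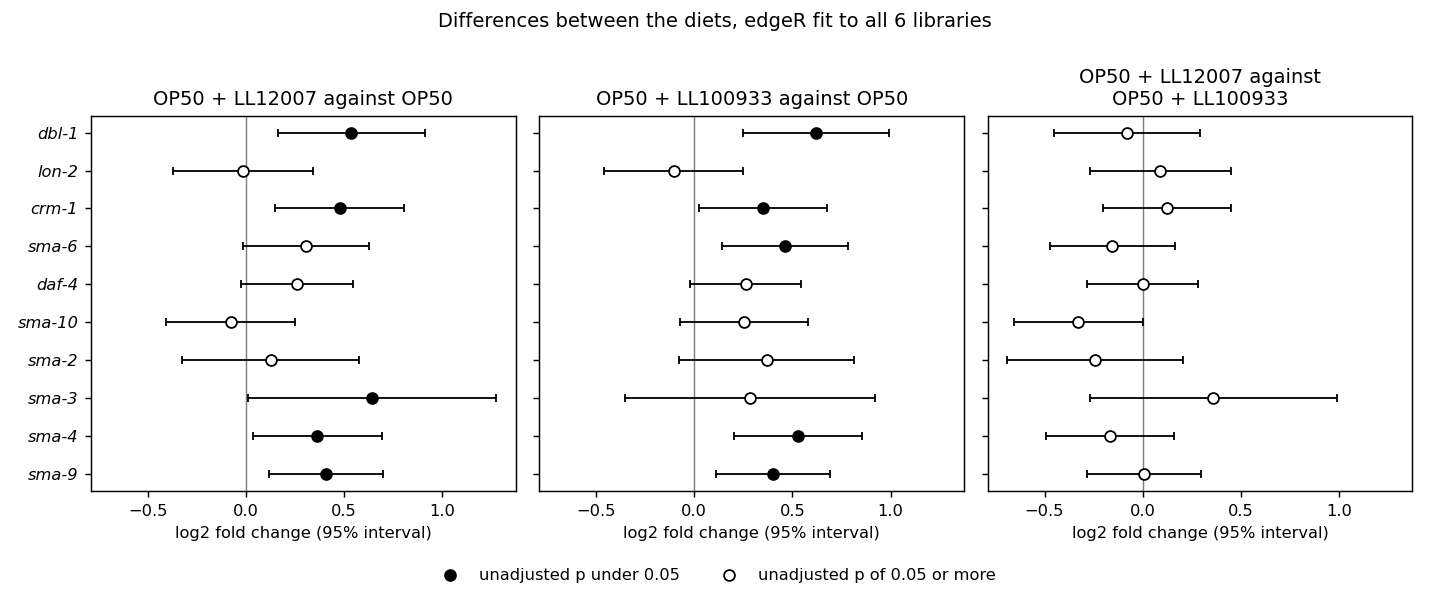
Log2 fold change of each gene (horizontal axis, edgeR) with its 95% interval in OP50 + LL12007 against OP50 (left), OP50 + LL100933 against OP50 (middle) and OP50 + LL12007 against OP50 + LL100933 (right). Filled points have an unadjusted p under 0.05, of which there are 5, 5 and 0 from left to right, and no point passed after adjustment.

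The 3 Smad genes differed in how steady they were. *sma-4* encodes the common Smad that joins the receptor-regulated ones. It had 500 and 549 normalized counts in OP50 + LL12007, 573 and 603 in OP50 + LL100933, and 454 and 359 in OP50. Its 3 groups did not overlap each other, with OP50 lowest and OP50 + LL100933 highest. The log2 fold change was 0.36 ± 0.15 with LL12007 (SE, adjusted p = 0.107) and 0.53 ± 0.15 with LL100933 (SE, adjusted p = 0.0558).

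*sma-2* and *sma-3* encode the receptor-regulated Smads of the pathway and were its least abundant members. *sma-2* had 158 and 148 normalized counts in OP50 + LL12007, 179 and 183 in OP50 + LL100933, and 159 and 120 in OP50. Only OP50 + LL100933 stood clear of OP50, and its log2 fold change of 0.37 ± 0.20 did not pass (SE, adjusted p = 0.229), nor did 0.13 ± 0.20 with LL12007 (SE, adjusted p = 0.666). Without replicate 2 of OP50 these values were 0.21 (adjusted p = 0.535) and -0.05 (adjusted p = 0.902). The deposited models of *sma-2* share 75 bases of exon with *aak-1* on the opposite strand, which had 295 to 520 reads.

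*sma-3* had 130 and 192 normalized counts in OP50 + LL12007, 118.8 and 133 in OP50 + LL100933, and 127 and 77.8 in OP50. It had the largest log2 fold change of any member in any comparison, 0.64 with LL12007, and also the largest standard error there, 0.28 (adjusted p = 0.13). That value was 0.35 without replicate 2 of OP50 (adjusted p = 0.396), below the 0.43 of *sma-9* in the same fit, and 0.36 without replicate 2 of OP50 + LL12007 (adjusted p = 0.593). The lower OP50 + LL12007 library, at 130, was barely above the higher OP50 library, at 127, and the exact Poisson 95% intervals of those libraries, 108 to 156 and 108 to 149, overlapped. These intervals cover counting error only. With LL100933 the log2 fold change was 0.28 (adjusted p = 0.515), and without replicate 2 of OP50 it was 0.00 (adjusted p = 0.994).

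*sma-9* encodes a large zinc finger protein, the worm homologue of Schnurri, which works with the Smads at target genes. It had 3230 and 3376 normalized counts in OP50 + LL12007, 2905 and 3677 in OP50 + LL100933, and 2464 and 2519 in OP50. It was the most deeply counted member, and all 4 mixed-diet libraries were above both OP50 libraries. Its log2 fold change was 0.41 ± 0.13 with LL12007 (SE, adjusted p = 0.0583) and 0.40 ± 0.13 with LL100933 (SE, adjusted p = 0.0784). With 1 library left out it was 0.39 to 0.44 with LL12007. With LL100933 it was 0.23 without replicate 2 of OP50 + LL100933 (adjusted p = 0.374), 0.56 without replicate 1 of that group (adjusted p = 0.0648) and 0.44 without replicate 2 of OP50 (adjusted p = 0.0967).

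Libraries of the compared groups did not overlap for 8 of the 10 members with LL12007, for 8 of 10 with LL100933, and for 4 of 10 between the strains. The same held for 68.4%, 59.1% and 46.5% of all tested genes. With LL12007 the exceptions were *lon-2* and *sma-2*, and with LL100933 they were *lon-2* and *sma-3*. *sma-10* was without overlap in both comparisons, but lower with LL12007 and higher with LL100933. Between the strains the members without overlap were *dbl-1*, *sma-10*, *sma-2* and *sma-4*, all lower in OP50 + LL12007, with log2 fold changes of -0.08 to -0.33 and adjusted p-values of 0.487 to 0.897.

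The count of members called was sensitive to the OP50 libraries. Without replicate 1 of OP50, edgeR called 4 members higher with LL12007 (*dbl-1*, *crm-1*, *sma-3* and *sma-4*) and 2 with LL100933 (*dbl-1* and *sma-4*), each with the remaining OP50 group at 1 library. Calls over all tested genes were more frequent in that fit too, with 17.1% higher with LL12007 and 11% higher with LL100933. Without replicate 2 of OP50 it called 0 members in both, beside 4.7% and 3.91% of all tested genes higher. *dbl-1* then had a log2 fold change of 0.32 with LL12007 (adjusted p = 0.173) and 0.42 with LL100933 (adjusted p = 0.108), against 0.81 (adjusted p = 0.00535) and 0.89 (adjusted p = 0.00615) when replicate 1 of OP50 was the one left out. *sma-4* moved in the same way, to 0.22 and 0.40 without replicate 2 and to 0.55 and 0.71 without replicate 1. Other members depended more on replicate 2 of OP50 + LL100933, without which the log2 fold change with LL100933 was 0.17 for *crm-1*, 0.13 for *daf-4* and 0.05 for *sma-10*. Over all other scalings, filters and tools tried, between 0 and 4 members were called higher in each comparison with OP50 and none was called lower.

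**Figure D3:**
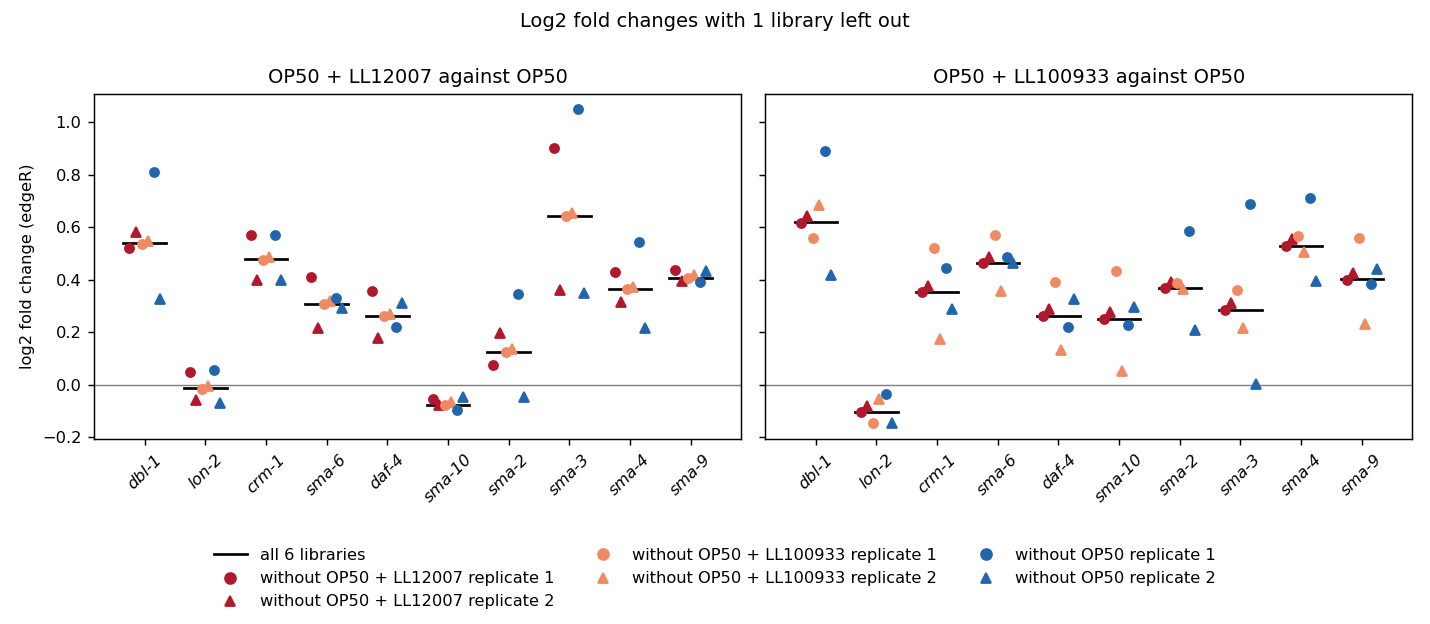
Log2 fold change of each gene (vertical axis, edgeR) against OP50 for OP50 + LL12007 (left) and OP50 + LL100933 (right), with all 6 libraries (black lines) and with 1 library left out (points, coloured by the group that lost a library). For *dbl-1* the values run from 0.32 to 0.81 on the left and from 0.42 to 0.89 on the right, set at both ends by the OP50 libraries, whereas *sma-9* on the left stays between 0.39 and 0.44.

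Levels can be compared between genes only per length, for which TPM (a gene's reads per base, scaled so that each library sums to the same total) were computed over the counted exon length of each gene, 1339 bases for *sma-3* to 7811 bases for *sma-9*. By mean TPM over the 6 libraries the order was *daf-4* (35.5), *sma-9* (31), *crm-1* (23.3), *dbl-1* (23.2), *sma-4* (21.1), *sma-6* (16.9), *sma-10* (16.2), *lon-2* (9.83), *sma-2* (8.23) and *sma-3* (7.72). The same order came from reads per kilobase scaled with the TMM factors. The ranges of neighbours overlapped at every step except between *sma-10*, at 14.1 to 21.8 TPM, and *lon-2*, at 9.28 to 10.5 TPM. Within a library, however, *daf-4* was above *sma-9*, *sma-9* above *crm-1*, and *sma-4* above *sma-6*, in 6 of 6 libraries, while *crm-1* was above *dbl-1* in 3 of 6. The type II receptor was thus listed at 1.91 to 2.33 times the TPM of the type I receptor in every library.

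**Figure D4:**
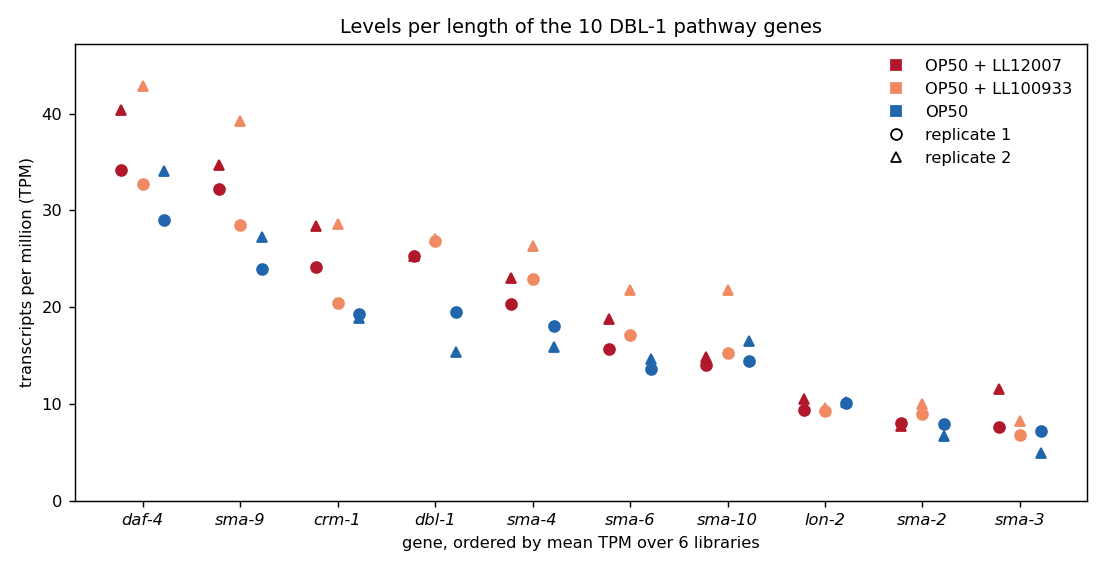
TPM of each gene (vertical axis, from 0) in each of the 6 libraries, with genes ordered by their mean TPM (horizontal axis). Colours give the diet, circles replicate 1 and triangles replicate 2. The 3 least abundant genes, *lon-2*, *sma-2* and *sma-3*, lie at or below 11.5 TPM, and *daf-4* at 29.02 TPM or more.

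Ratios within a library do not depend on how libraries are scaled to each other. The inhibitor *lon-2* had 0.371 and 0.416 TPM per TPM of the ligand *dbl-1* in OP50 + LL12007, 0.345 and 0.353 in OP50 + LL100933, and 0.516 and 0.664 in OP50. Both OP50 libraries were above all others, and the gap between them was wider than that from the lower one to the nearest mixed-diet library. With 2 libraries in a group the smallest two-sided p of an exact permutation test is 0.333, and none was run. *sma-4* gave 56.5% and 54.4% of the summed TPM of the 3 Smad genes in OP50 + LL12007, 59.3% and 59.0% in OP50 + LL100933, and 54.4% and 57.8% in OP50. The ratio of *sma-3* to *sma-2* TPM was 0.940 and 1.49 in OP50 + LL12007, 0.757 and 0.826 in OP50 + LL100933, and 0.912 and 0.737 in OP50, with 1.49 the only value above 1.

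Markers of neurons and of the germline also differed between the diets. All 13 neuronal markers had a positive log2 fold change in both comparisons with OP50, and edgeR called 5 of them higher with LL12007 and 4 with LL100933. Their summed level was 1793 and 1907 CPM (reads scaled to a common library total) in OP50 + LL12007, 1864 and 2088 in OP50 + LL100933, and 1483 and 1245 in OP50. All 14 germline markers had a negative log2 fold change, with 14 called lower with LL12007 and 3 with LL100933, and their sum was 3583 and 3203 CPM, 4075 and 3517 CPM, and 4903 and 5591 CPM in the same order of groups. The counts of called markers moved with the OP50 libraries and the tool. For LL12007 and LL100933, neuronal markers called higher were 3 and 3 without replicate 2 of OP50, 10 and 10 without replicate 1, and 7 and 9 with DESeq2 on all libraries. Germline markers called lower were 11 and 0 without replicate 2, 14 and 11 without replicate 1, and 14 and 9 with DESeq2. No marker in these lists was at 0 in all libraries. In RNA of whole worms, more cells of a type and more RNA per cell cannot be told apart.

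The level of *dbl-1* was also set against the neuronal markers, a ratio added after its values had been seen. It was 17.8 and 16.3 CPM per 1000 CPM of the 13 markers in OP50 + LL12007, 18.6 and 15.3 in OP50 + LL100933, and 17.1 and 14.4 in OP50. The groups overlapped on this ratio, unlike on normalized counts, and in each group replicate 1 was the higher. Of the other marker lists, body wall muscle had 2 of 8 genes called higher with each diet, pharynx 3 of 6 with LL12007 and 4 of 6 with LL100933, intestine 0 and 1 of 8, and epidermis 1 higher and 1 lower of 9 with LL12007 and 0 with LL100933. Of these calls, the higher one of epidermis was lost without replicate 2 of OP50, and pharynx had 2 with LL12007. Without replicate 1 of OP50, more body wall muscle markers were called higher with each diet, while intestine and epidermis had calls in both directions. What part these shifts have in the values of the 10 genes was not tested, and the ratio is not a test of it.

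Genes known to respond to the pathway did not pass with all 6 libraries, and what several of them did otherwise depended on which OP50 library was kept. The list held 9 genes, among them the cuticle collagen genes *col-41*, *col-141*, *col-142* and *rol-6* and the body length gene *lon-1*, and 8 were tested, since *spp-9* had 2 reads in all. edgeR called 0 of 8 in each comparison, and at an unadjusted p under 0.05 there were 0 against OP50 with either diet and 1 between the strains. DESeq2 on all 6 libraries called 0 against OP50 and 1 between the strains. Log2 fold changes were positive for 5 and negative for 3 of the 8 with LL12007 (median 0.54), and positive for 4 and negative for 4 with LL100933 (median -0.01). *lys-8*, *cnc-2* and *col-142* were negative with both diets. *lys-8* had 3967 and 3827 normalized counts in OP50 + LL12007, 3736 and 3754 in OP50 + LL100933, and 4386 and 4424 in OP50. Its log2 fold change was -0.18 with LL12007 (edgeR adjusted p = 0.253) and -0.23 with LL100933 (adjusted p = 0.168). *col-41* had 13253 and 13879 normalized counts in OP50 + LL12007, 13627 and 14015 in OP50 + LL100933, and 12795 and 4152 in OP50. *rol-6* had 5104 and 4773 in OP50 + LL12007, 4731 and 4485 in OP50 + LL100933, and 3669 and 1377 in OP50. The low value was that of replicate 2 of OP50 for both genes. Without it, the log2 fold change of *col-41* was 0.09 with LL12007 (adjusted p = 0.619) and 0.14 with LL100933 (adjusted p = 0.474), against 0.68 (adjusted p = 0.377) and 0.71 (adjusted p = 0.39) with all libraries. *rol-6* without that library was 0.44 with LL12007, which passed (adjusted p = 0.0471), and 0.35 with LL100933, which did not (adjusted p = 0.0963), against 0.97 (adjusted p = 0.191) and 0.87 (adjusted p = 0.255) with all libraries. Without replicate 1 of OP50, edgeR called 5 targets higher with LL12007 (*rol-6*, *lon-1*, *col-141*, *lon-3* and *col-41*) and 4 with LL100933 (the same without *lon-1*), with *col-41* at 1.71 (adjusted p = 4.73e-05) and 1.73 (adjusted p = 7.24e-05) and *rol-6* at 1.84 (adjusted p = 3.08e-05) and 1.74 (adjusted p = 7.24e-05).

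*lon-1*, whose loss makes worms long and which the pathway represses, was singled out after its values had been seen. It had 858 and 1028 normalized counts in OP50 + LL12007, 542 and 549 in OP50 + LL100933, and 856 and 562 in OP50. No groups overlapped, but both diets lay close to 1 OP50 library, LL12007 to the higher and LL100933 to the lower. The log2 fold change was 0.41 with LL12007 (adjusted p = 0.153) and -0.38 with LL100933 (adjusted p = 0.208) against OP50, and 0.79 between OP50 + LL12007 and OP50 + LL100933 (adjusted p = 0.247, unadjusted p = 0.00291). Without replicate 2 of OP50 it was called lower with LL100933 (-0.63, adjusted p = 0.0331) and had 0.15 with LL12007 (adjusted p = 0.522), and without replicate 1 it was called higher with LL12007 (0.75, adjusted p = 0.00764) and had -0.04 with LL100933 (adjusted p = 0.855). Between the strains it was 0.77 without replicate 2 of OP50 and 0.79 without replicate 1. *lon-3*, another target, had 848 and 854 normalized counts in OP50 + LL12007, 446 and 491 in OP50 + LL100933, and 608 and 190 in OP50. Its log2 fold change between the strains was 0.86 with all 6 libraries (edgeR adjusted p = 0.635). That value was 0.85 without replicate 2 of OP50 and 0.86 without replicate 1. Against OP50, *lon-3* had 1.08 with LL12007 (edgeR adjusted p = 0.209) and 0.22 with LL100933 (adjusted p = 0.81). Without replicate 1 of OP50 these values were 2.16 and 1.30, and without replicate 2 they were 0.50 and -0.35.

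The low summed target level in replicate 2 of OP50 came from collagen genes among the targets. *col-41* and *rol-6* were low there, but *lys-8* was not, at 4424 normalized counts against 3736 to 4386 in the other libraries. The low sum went with a low level of the cuticle collagens among the epidermal markers, but not of the other epidermal markers. The 9 targets together had 1387 and 1410 CPM in OP50 + LL12007, 1335 and 1343 in OP50 + LL100933, and 1293 and 626 in OP50. The 5 collagen markers (*col-19*, *col-10*, *dpy-7*, *bli-1* and *dpy-5*) had 2028 and 2200 CPM, 1991 and 1971 CPM, and 1945 and 863 CPM in the same order. The 5 others (*elt-1*, *elt-3*, *nhr-23*, *lin-26* and *che-14*) had 227 and 231 CPM, 199.7 and 207 CPM, and 209 and 226 CPM, so that replicate 2 of OP50 was not low there. Collagens make up most of the CPM of all 10 markers and also of the targets. Per 1000 CPM of all 10 markers, the targets had 615 and 580 CPM in OP50 + LL12007, 610 and 617 in OP50 + LL100933, and 600 and 575 in OP50. Per 1000 CPM of the 5 others they had 6120 and 6105 CPM, 6685 and 6498 CPM, and 6197 and 2775 CPM, and replicate 2 of OP50 stood apart again. Both ratios and the split of the markers were added after the values had been seen.

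**Figure D5:**
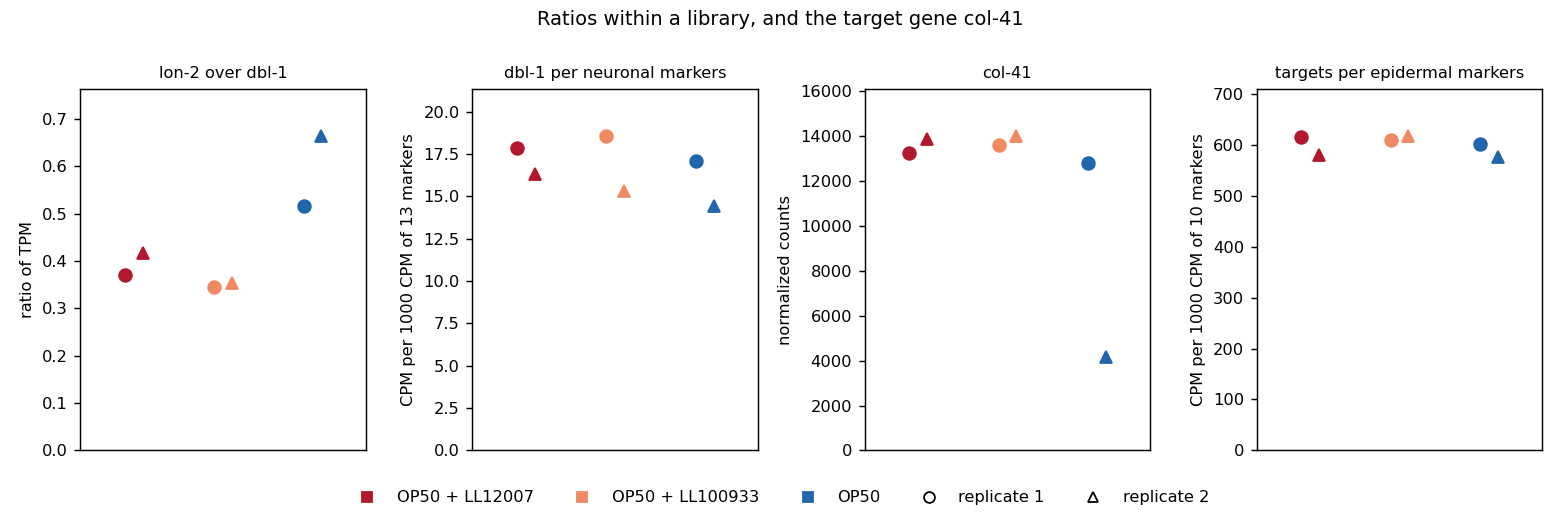
From left to right: TPM of *lon-2* per TPM of *dbl-1*, CPM of *dbl-1* per 1000 CPM of 13 neuronal markers, normalized counts of the target gene *col-41*, and CPM of 9 target genes per 1000 CPM of 10 epidermal markers, each from 0, for the 2 libraries of OP50 + LL12007, OP50 + LL100933 and OP50. In the first panel both OP50 libraries lie above the rest, at 0.516 and 0.664, and in the third replicate 2 of OP50 stands apart at 4152 against 12795 or more in the other libraries. In the *dbl-1* panel all diets overlap. In the panel of targets, where targets and markers alike are mostly cuticle collagens by CPM, all values lie between 575 and 617.

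Some regulators and neighbours of the pathway did pass. Of 8 genes that modulate DBL-1 signalling, edgeR called 2 higher and 1 lower with LL12007 and 1 higher with LL100933. Over all tested genes it called 8.76% higher and 7.71% lower with LL12007, and 4.38% higher and 2.24% lower with LL100933. The same shares stand beside the counts of the other lists that follow. *kin-29*, a salt-inducible-type kinase whose loss makes worms small, had 731 and 838 normalized counts in OP50 + LL12007, 682 and 744 in OP50 + LL100933, and 485 and 478 in OP50. It rose by 0.70 on the log2 scale with LL12007 (adjusted p = 0.0193) and 0.57 with LL100933 (adjusted p = 0.041). The second call was lost without OP50 replicate 2 (log2 fold change 0.58). It was also lost in DESeq2 and in edgeR on the pair of groups, and with replicate as a block. *drag-1*, the worm member of the repulsive guidance molecule family, rose with LL12007 (log2 fold change 0.98, adjusted p = 0.0398), at 80.7 and 122 normalized counts in OP50 + LL12007 against 54.9 and 47.5 in OP50. It had 78.9 and 78.2 in OP50 + LL100933 (adjusted p = 0.157). *tsp-12*, a tetraspanin that promotes the signal, fell with LL12007 by 0.45 on the log2 scale (adjusted p = 0.0332), with 754 and 762 normalized counts in OP50 + LL12007 against 979 and 1097 in OP50, and had 874 and 788 in OP50 + LL100933 (adjusted p = 0.102). The calls of *drag-1* and *tsp-12* with LL12007 were lost without OP50 replicate 2 (log2 fold changes of 0.89 and -0.36). That of *drag-1* was also lost in DESeq2 and in edgeR on the pair of groups, and with replicate as a block.

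None of 5 genes of receptor trafficking was called with either diet by edgeR or by DESeq2 on all 6 libraries, and 1 of them had an unadjusted p under 0.05 in edgeR with LL12007 and 2 with LL100933. The most abundant, *rme-1*, which acts in endocytic recycling, had 6603 and 6242 normalized counts in OP50 + LL12007, 6534 and 5858 in OP50 + LL100933, and 6778 and 7030 in OP50. *dpy-23*, a subunit of the clathrin adaptor AP2, had 1827 and 1730 in OP50 + LL12007, 1910 and 1761 in OP50 + LL100933, and 1579 and 1607 in OP50 (adjusted p = 0.278 and 0.2 against OP50).

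Among 8 tested genes of the dauer branch and other TGF-beta ligands, 2 were called higher with LL12007 and 1 with LL100933. *daf-5*, a Sno/Ski-family cofactor of the dauer branch, had 2571 and 2509 normalized counts in OP50 + LL12007, 2843 and 2781 in OP50 + LL100933, and 1801 and 1892 in OP50. It rose by 0.46 on the log2 scale with LL12007 (adjusted p = 0.0245) and 0.61 with LL100933 (adjusted p = 0.0229), and the second call was lost in edgeR on the pair of groups. *unc-129*, a ligand gene known from axon guidance, rose by 0.53 with LL12007 (adjusted p = 0.0478). That call was lost without replicate 1 of OP50 (log2 fold change 0.37), and in DESeq2 and in edgeR on the pair of groups. With LL100933 the log2 fold change of *unc-129* was 0.32 (adjusted p = 0.189). The ninth gene of that list, *tig-3*, had 17 reads in all and was not tested.

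Of 7 genes that set body size outside the DBL-1 pathway, the same 3 passed with each diet when all 6 libraries were used. *sma-5*, a mitogen-activated protein kinase whose loss makes worms small, had 981 and 982 normalized counts in OP50 + LL12007, 944 and 925 in OP50 + LL100933, and 662 and 588 in OP50. Its log2 fold change was 0.65 with LL12007 (adjusted p = 0.0193) and 0.58 with LL100933 (adjusted p = 0.0326). *lon-8*, a secreted epidermal protein whose loss makes worms long, had log2 fold changes of 0.76 (adjusted p = 0.0198) and 0.62 (adjusted p = 0.0423), and *tax-6*, the catalytic subunit of calcineurin, 0.54 (adjusted p = 0.0218) and 0.48 (adjusted p = 0.0413). With LL100933 the call of *lon-8* was lost without replicate 2 of OP50 (log2 fold change 0.54), and all 3 were lost in DESeq2 and in edgeR on the pair of groups. Those of *lon-8* and *tax-6* with LL100933 were also lost with replicate as a block. Genes of both Sma and Lon mutants were thus among those that rose with all 6 libraries.

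The gene annotation lists 12 further genes under TGF-beta or BMP receptor signalling, a list taken whole after the other lists had been seen and sharing genes with them. edgeR called 5 of the 12 higher with LL12007 (*daf-5*, *drag-1*, *kin-29*, *tag-68* and *unc-129*) and 3 with LL100933 (*daf-5*, *kin-29* and *tag-68*), and none lower. *tag-68* had 208 and 241 normalized counts in OP50 + LL12007, 223 and 224 in OP50 + LL100933, and 122 and 130 in OP50. Its log2 fold change was 0.83 with LL12007 (adjusted p = 0.0241) and 0.82 with LL100933 (adjusted p = 0.0388). The second call was lost in DESeq2 and in edgeR on the pair of groups, and with replicate as a block. Between the strains, edgeR called no gene of any list, as it called none of all tested genes.

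The calls of named genes outside the 10 rest on 2 libraries a group. All 9 of them with LL12007 were lost when either OP50 + LL12007 library was left out (adjusted p of 0.0807 to 0.356), and all 6 with LL100933 were lost when any 1 of the 4 mixed-diet libraries was (adjusted p of 0.0593 to 0.195). Few genes of the whole table passed in those fits, at most 0.0972% higher with LL12007 and 0.663% higher with LL100933, so the losses say little about single genes. With a library of the same diet left out, the log2 fold changes were 0.687 to 1.28 times those with all libraries.

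In the genome build of the files (ce11, WBcel235), 4 of the 10 genes lay on chromosome III. They were *daf-4* (5625014 to 5632322, plus strand), *sma-4* (5816203 to 5820200, plus strand), *sma-3* (6860939 to 6863968, minus strand) and *sma-2* (8749763 to 8757069, plus strand). *dbl-1* (6758135 to 6760418, plus strand) and *crm-1* (10322288 to 10332112, minus strand) lay on chromosome V, *lon-2* (4738964 to 4749083, minus strand) and *sma-9* (10769288 to 10782973, plus strand) on chromosome X, *sma-6* (6324484 to 6327355, plus strand) on chromosome II, and *sma-10* (274570 to 279940, plus strand) on chromosome IV. All counts are over merged exons, 8 blocks for *dbl-1* to 23 for *sma-9*, so different transcripts of a gene are not told apart, and *sma-9* alone has 14 listed transcripts.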

How the data were processed

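RNA of whole N2 worms was sequenced from poly(A)-selected, stranded libraries. The authors trimmed, aligned and counted the reads, and the submitters' processing notes name Trim Galore 0.6.5, Trimmomatic 0.39, cutadapt 2.7, STAR 2.7.2b and featureCounts 1.6.4 (the paper gives other versions) with ce11 (WBcel235). The values deposited by the authors are whole-number counts per gene, not normalized. Strand setting and handling of multiply mapped reads: not given in the sources used here. Genes kept by filterByExpr (14899) were fitted with glmQLFit (robust) in edgeR 4.0.16 (R 4.3.3) with TMM scaling over all 6 libraries, with 3 residual degrees of freedom, and p-values were adjusted by Benjamini-Hochberg within a comparison. SE, which edgeR does not give, was taken from its F statistic and the log2 fold change. Normalized counts are scaled to the mean effective library size. At these totals counting error is smaller than the spread between libraries for most members. Members and lists were chosen with earlier results of these data known. All 10 members are named. Of the other lists, up to 4 called genes or the 2 most abundant are named, and *tag-68*, *spp-9*, *tig-3*, *lon-1* and the other targets and epidermal markers were named after seeing their values. Alternatives were other scalings, filters, DESeq2 1.42.0, pairwise fits, a replicate block and leaving out each library. The fit was tested on simulated data.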

Additional observations from a re-analysis of the deposited data

How the results depend on the processing

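With edgeR on all 6 libraries, 0 members were called. The number called higher with LL12007 and with LL100933 was 2 and 1 with RLE factors, 3 and 2 with upper-quartile factors, 2 and 2 with DESeq2 on all libraries, 2 and 0 with DESeq2 on the pair of groups, 2 and 0 with edgeR on the pair, 4 and 4 with no filter on low counts, and 0 and 1 with a CPM filter. Leaving out 1 library gave 0 to 4 with LL12007 and 0 to 2 with LL100933. No alternative called a member lower, or any member between the strains. Of 420 member values, 368 kept their direction and stayed uncalled, 36 newly passed the threshold and 16 reversed. None could fall below it, since no member was called with edgeR on all 6 libraries.

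The replicate numbers did not pair the libraries (correlations of replicate deviations of -0.058 and -0.0016 against OP50 for LL12007 and LL100933, and 0.20 between the strains). With a replicate block, 1 member, *dbl-1*, was called with LL12007 and 0 with LL100933, and 271 genes were called higher and 69 lower with LL100933.

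Genes called higher with LL100933, 652 in the report, numbered 404 with DESeq2 on the pair, 63 with edgeR on the pair, 1760 with no filter and 7 to 1688 with 1 library left out. Those called lower, 334 in the report, numbered 142 with upper-quartile factors, 530 with DESeq2 on all libraries, 109 with DESeq2 on the pair, 5 with edgeR on the pair, 725 with no filter and 0 to 1038 with 1 library left out. With LL12007, 1305 genes higher became 2425 with no filter and 5 to 2611 with 1 library left out, and 1149 lower became 0 to 1892. Between the strains, 0 became 83 higher and 67 lower with DESeq2 on all libraries, 272 and 206 with DESeq2 on the pair, 234 and 171 with edgeR on the pair, 354 and 350 with no filter, and 0 to 264 and 0 to 196 with 1 library left out, both highest without replicate 2 of OP50. In each case the cause was not tested.

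The members and named genes followed through every alternative that reversed under one had log2 fold changes of 0.13 or less in size. Targets other than *col-41* and *rol-6* and the epidermal markers were not among the genes so followed, and larger values reversed in some of these targets. *lon-3* with LL100933 was 0.22 with all libraries and -0.35 without replicate 2 of OP50. *col-142* between the strains was 0.17 with all libraries and -0.06 without replicate 2 of OP50 + LL100933. *lon-2* with LL12007 was 0.0426 with upper-quartile factors and -0.0678 to 0.0546 with 1 library left out, and *sma-2* with LL12007 was -0.0462 to 0.3445. Between the strains, *sma-9* was -0.0019 with RLE factors, -9e-04 with DESeq2 on the pair, -0.0039 with edgeR on the pair, -2e-04 with no filter and -0.0154 with a CPM filter, and -0.1544 to 0.1832 with 1 library left out. *tag-68* was -6e-04, -8e-04 and -0.0035 under the first 3 of these and -0.0144 with a CPM filter. *daf-4* was 9e-04 with a replicate block and -0.1292 to 0.1367 with 1 library left out, and *crm-1* -0.0443 to 0.3129. With 1 library left out, *tag-68* was -0.1069 to 0.1097, *rme-1* -0.0264 to 0.1329, *dpy-23* -0.1046 to 0.0149, *col-41* -0.0634 to 0.0074 and *tax-6* -0.0066 to 0.1359.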
